A study of Mus musculus with 6 samples.

Results

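The genes described here are 10 immediate early transcription factors of the AP-1 and EGR families, namely the FOS subfamily (*Fos*, *Fosb*, *Fosl1* and *Fosl2*), the JUN subfamily (*Jun*, *Junb* and *Jund*), the zinc finger factors *Egr1* and *Egr2*, and the stress-inducible factor *Atf3*. They were taken by name from the 23231 genes with a count in at least 1 library, and all 10 were found and passed the low-count filter. Differentiated C2C12 cells, a mouse myoblast line, were sequenced as poly(A) RNA on day 5 in 2% horse serum, as 3 libraries of the control group, dCas9-KRAB, and 3 of dCas9-KRAB-En5. Lentivirus at a multiplicity of infection of 100 and selection in 2 µg/ml puromycin were used in both groups. Both groups express a nuclease-dead Cas9 joined to the KRAB repressor domain, and the dCas9-KRAB-En5 group also carries guide RNAs against Myog-En5, an enhancer of the muscle regulator *Myog*, so the comparison asks what else differed when that enhancer was targeted. The labels do not say that the replicates came from separate cultures, so the p-values below measure the spread between these libraries, which may be technical.

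AP-1 is a dimer of basic leucine zipper proteins. FOS proteins bind DNA only with a partner such as a JUN protein, whereas JUN proteins can also pair with each other, and ATF3 can pair with JUN proteins. Growth factors, stress and inflammatory signals induce most of these genes within minutes through MAP kinases and the serum response factor, and dual-specificity phosphatases then shut the kinases off. JUN and FOS are known to oppose MYOD in myoblasts, and AP-1 and EGR factors are part of the activation response of macrophages.

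The libraries held 31831093 to 73988425 counts, with the middle library of dCas9-KRAB at 66910018 and that of dCas9-KRAB-En5 at 35388411. dCas9-KRAB-En5 replicate 3 stood apart, with 13991 genes listed against 17084 to 19395 elsewhere and 25.8% of its counts in ribosomal protein genes against 10.75% to 19.39%. *Myog*, next to the targeted enhancer, had a TPM (a level per length, scaled to 1000000 in each library) of 1065.2 to 1224.0 in dCas9-KRAB and of 0 to 0.379 in dCas9-KRAB-En5. The labels call all samples myoblasts, but the summed TPM of 12 myoblast markers was 608.0 to 2185.2 in dCas9-KRAB and 36.2 to 50.9 in dCas9-KRAB-En5. *Myod1*, 1 of them, was at or below 0.0761 TPM in the second group. The summed TPM of 12 myotube markers was 16166 to 18470 in dCas9-KRAB and 6.26 to 16.2 in dCas9-KRAB-En5. In both groups 12 of 20 macrophage markers were at 10 TPM or more in every library. Their summed TPM was 6844 to 9121 in dCas9-KRAB and 14374 to 22324 in dCas9-KRAB-En5, and *Lyz2* alone made up 1895.6 to 4814.8 TPM of the first and 6938.0 to 13209.7 TPM of the second. *C1qa* was at 0 to 20 counts in the controls and at 0 in dCas9-KRAB-En5, and 6 of 18 tested markers had an estimate below 0. T and B cell markers summed to at most 1.54 TPM and endothelial and epithelial markers to at most 5.18 TPM in any library. In such bulk samples fewer cells of a type and less RNA per cell cannot be told apart, and the part of these marker levels in the results below was not tested.

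Promoter windows of 250 bases before to 50 bases after the RefSeq start site (GRCm38.p6) were at hand for 8 of the 10 genes. The 4 printed here belong to the genes with the highest estimated folds toward dCas9-KRAB-En5, so that the known inputs of these genes can be read beside their values. Capitals mark words found by a search of both strands. These are the TATA box TATAAA, the E-box CAGCTG, the word TGACG, which is also part of the full cyclic AMP response element TGACGTCA, the EGR words GCGGGGGCG and GCGTGGGCG, and the AP-1-like words TGACATCA and TTACCTCA known from the *Jun* promoter. The windows lie at chr12:85473640-85473939 on the plus strand (*Fos*), chr7:19309996-19310295 on the minus strand (*Fosb*), chr5:32136222-32136521 on the plus strand (*Fosl2*) and chr4:95052173-95052472 on the minus strand (*Jun*).
Fos: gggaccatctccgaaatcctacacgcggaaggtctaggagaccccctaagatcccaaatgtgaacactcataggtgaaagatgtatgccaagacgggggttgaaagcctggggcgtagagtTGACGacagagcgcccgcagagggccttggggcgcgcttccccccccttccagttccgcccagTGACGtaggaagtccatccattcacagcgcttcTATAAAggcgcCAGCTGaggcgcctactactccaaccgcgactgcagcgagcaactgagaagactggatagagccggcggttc
Fosb: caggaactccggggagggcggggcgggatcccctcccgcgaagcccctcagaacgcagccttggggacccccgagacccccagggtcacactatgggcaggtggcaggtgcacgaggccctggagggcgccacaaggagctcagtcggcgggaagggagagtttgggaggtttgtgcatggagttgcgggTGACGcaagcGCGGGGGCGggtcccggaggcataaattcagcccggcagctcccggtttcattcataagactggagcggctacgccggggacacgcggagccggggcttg
Fosl2: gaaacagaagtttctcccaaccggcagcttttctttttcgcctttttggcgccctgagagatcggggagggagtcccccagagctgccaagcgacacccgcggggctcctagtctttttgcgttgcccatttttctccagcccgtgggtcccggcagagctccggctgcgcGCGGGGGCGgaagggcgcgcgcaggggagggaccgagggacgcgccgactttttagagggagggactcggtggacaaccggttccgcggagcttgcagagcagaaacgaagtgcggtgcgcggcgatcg
Jun: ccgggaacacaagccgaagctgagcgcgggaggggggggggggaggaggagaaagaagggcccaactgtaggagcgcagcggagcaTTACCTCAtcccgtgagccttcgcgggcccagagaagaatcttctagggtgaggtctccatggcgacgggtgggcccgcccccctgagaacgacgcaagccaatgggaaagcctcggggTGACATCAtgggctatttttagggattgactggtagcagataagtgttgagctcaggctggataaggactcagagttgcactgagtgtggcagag
The *Fos* window held TATAAA, then the E-box CAGCTG, and 2 copies of TGACG before them. *Fosb* and *Fosl2* both held the EGR word GCGGGGGCG, a type of site found in 3.47% of the 32851 promoter windows of the table. Both AP-1-like words lay in the *Jun* window, and 4.47% of all windows held at least 1 of them. TGACG was present in 5 of the 8 genes and in 20.8% of all windows, CAGCTG in 3 and 16.3%, among them *Jund*, whose RefSeq start site (70697739) lies upstream of the gene model counted here (from 70698949), and TATAAA in 2 and 13.6%. Within the windows, a serum response element of the CArG type occurred in *Egr2* alone among the 8, which has 5 windows, and in 1.63% of all windows. Elements more than 250 bases before the start site lie outside the search, so a word missing here may still be present further upstream. The consensus AP-1 word TGACTCA was not in any of the 8 windows (5.2% of all), and neither was TGACGTCA (1.79% of all). These matches describe letters only and say nothing about binding in these cells.

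Of the 10 genes, none passed both thresholds between the groups in edgeR's quasi-likelihood test (adjusted p of at most 0.01 and at least a 2-fold change), in either direction. Over all 14378 genes tested, 1.52% were called higher and 4.67% lower in dCas9-KRAB-En5. At an unadjusted p under 0.05, 4 of the 10 were higher (16.6% of all genes) and 1 was lower (16.3%). The other tools gave 4 higher and 0 lower with DESeq2 (background 5.88% and 8.66%) and 0 in either direction with limma (background 0.223% and 3.35%). The estimates leaned one way, with 9 of 10 log2 fold changes above 0 and a median of 1.23, against 52.3% of all genes above 0 and a median of 0.08. In TPM, all dCas9-KRAB-En5 libraries were above all dCas9-KRAB libraries for *Fos* and *Fosb* (2 of 10, and 7.76% of all genes) and below them for *Jund* (1 of 10, and 19.7% of all genes). The groups overlapped for the other 7. In the same edgeR test 11 of 12 myotube, 7 of 11 myoblast and 2 of 9 fibroblast markers fell. With 1 library left out these counts were 10 to 12, 3 to 9 and 0 to 3 (1.43% to 14.0% of all genes). Of 18 macrophage markers 1, *Adgre1*, rose, and 2 of 18 with the replicate block (3.94% of all genes). Without dCas9-KRAB-En5 replicate 3, 3 macrophage markers rose and 1 fell (11.7% and 14.0% of all genes). With any other library left out 0 were called, where 0.0397% to 0.847% of all genes rose and 1.43% to 3.26% fell.

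Leaving out dCas9-KRAB-En5 replicate 3 changed this count. *Fos*, *Fosl2* and *Jun* then rose and *Jund* fell past both thresholds, which is 3 of 10 higher and 1 of 10 lower against a background of 11.7% and 14.0%. When the replicate number entered the fit as a block, no gene of the 10 passed (background 3.94% higher and 6.79% lower). With the block on the libraries numbered 1 and 2 alone, 5 passed as higher, namely *Fos*, *Fosb*, *Fosl2*, *Jun* and *Egr1*, and *Jund* as lower (background 13.0% and 14.7%).

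**Figure D1:**
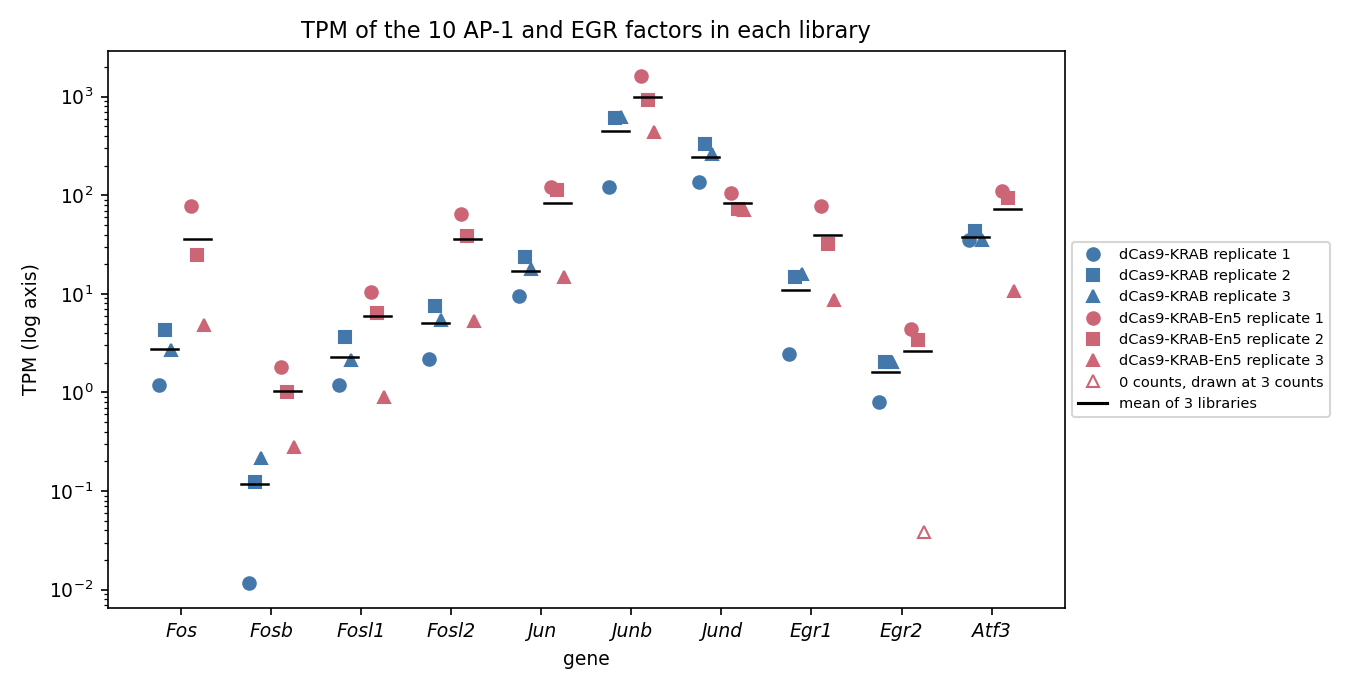
TPM on a log axis of the 10 genes in the 3 dCas9-KRAB libraries (blue) and the 3 dCas9-KRAB-En5 libraries (red), with the replicate number given by the symbol and the mean of 3 libraries as a black line. Within dCas9-KRAB-En5, replicate 1 is the highest and replicate 3 the lowest for every gene, and *Egr2* in replicate 3 had 0 counts and is drawn at the level of 3 counts (0.0386 TPM).

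*Fos*, the partner that gives AP-1 its classic inducible form, lies on chromosome 12 of GRCm38 (85473890 to 85477273, plus strand) and had the highest estimate. In the order of the replicates 1 to 3, used for all values here, its TPM was 1.19, 4.28 and 2.72 in the controls and 78.3, 24.7 and 4.87 in the dCas9-KRAB-En5 libraries. The counts behind these were 76 to 377 and 262 to 3901. The groups did not overlap, but the third dCas9-KRAB-En5 library lay only just above the highest control. The estimate was 3.35 on the log2 scale (SE 0.75, 10.2-fold, adjusted p = 0.0117 from edgeR), so *Fos* missed the threshold on the adjusted p by little. *Fos* passed in the same edgeR test without dCas9-KRAB-En5 replicate 3 (3.71, adjusted p = 0.00118) and without dCas9-KRAB-En5 replicate 2 (3.64, adjusted p = 0.00686). It did not pass without dCas9-KRAB-En5 replicate 1, where the estimate dropped to 2.16 (adjusted p = 0.0502), or without dCas9-KRAB replicate 1, 2 or 3 (adjusted p = 0.0826, 0.0384 and 0.0436).

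*Fosb*, a close relative of *Fos*, was the least abundant of the 10 in both groups by mean TPM. Its counts were 2, 29 and 60 in dCas9-KRAB and 239, 107 and 40 in dCas9-KRAB-En5, or 0.0118, 0.124 and 0.215 TPM against 1.81, 1.01 and 0.280 TPM. All dCas9-KRAB-En5 libraries were above all controls, with replicate 3 again next to them. Its log2 fold change was 2.77 (SE 0.93, adjusted p = 0.0611 from edgeR), and DESeq2 called the gene with an adjusted p of 0.00851.

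*Fosl2* encodes FRA-2, a FOS protein without the strong activation domain of FOS. Its TPM was 2.17, 7.62 and 5.39 in dCas9-KRAB and 64.8, 38.4 and 5.36 in dCas9-KRAB-En5, so replicates 1 and 2 of the second group were far above the controls and replicate 3 was level with control replicate 3. The log2 fold change was 2.45 (SE 0.66, adjusted p = 0.0261 from edgeR), and 2.79 without dCas9-KRAB-En5 replicate 3 (adjusted p = 0.00178, same test). With any other library left out the adjusted p was 0.0344 to 0.114, and the estimate was lowest, at 1.76, without dCas9-KRAB-En5 replicate 1.

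*Fosl1* encodes FRA-1, known as a growth factor target. Its TPM was 1.18, 3.64 and 2.12 against 10.5, 6.44 and 0.903, and dCas9-KRAB-En5 replicate 3 was below all controls. The log2 fold change of 0.98 (SE 0.67, adjusted p = 0.339 from edgeR) did not exceed the spread between replicates. *Fosl1* overlaps *Ccdc85b* on the opposite strand, and whether the counting used strand is not given in the sources used here, so reads of the overlap cannot be assigned to either gene.

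Within the FOS subfamily, *Fos* took 26.1%, 27.3% and 26.0% of the summed TPM in dCas9-KRAB and 50.4%, 35% and 42.7% in dCas9-KRAB-En5. *Fosl1* held 25.9%, 23.2% and 20.3% against 6.74%, 9.13% and 7.91%, and *Fosl2* held 41.7% to 54.4% over all 6 libraries. Such shares are ratios within a library and do not depend on the scaling between libraries. They were not adjusted for GC content, which was 51.9% for the *Fos* transcript and 58.5% for that of *Fosl1*. The shares of *Fos* and of *Fosl1* did not overlap between groups, with dCas9-KRAB-En5 replicate 3 on the side of its group (exact permutation test, two-sided, p = 0.1 for each, the smallest that 3 against 3 allow, and 0.22 after adjustment over the 11 shares and sums tested).

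The JUN subfamily supplied most of the AP-1 transcripts. *Junb*, the JUN protein that can damp as well as drive AP-1, was the most abundant of the 10 genes by mean TPM in both groups. Its TPM was 123, 608 and 619 in dCas9-KRAB and 1620, 932 and 441 in dCas9-KRAB-En5. The groups overlapped, since dCas9-KRAB-En5 replicate 3 was below 2 of the 3 controls, and the log2 fold change was 0.91 (SE 0.62, adjusted p = 0.331 from edgeR). An added offset for GC content raised it to 1.86, still short of the thresholds (adjusted p = 0.0497, same test). *Junb* overlaps *Prdx2* on the opposite strand, and the length implied by its counts and TPM was 78.6% of its annotated exon bases, against 100% for the other 9 genes.

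*Jun* encodes the central AP-1 partner, c-JUN, from a gene of 1 exon on chromosome 4 (95049034 to 95052222, minus strand). Its TPM was 9.50, 23.6 and 17.7 in dCas9-KRAB and 120, 114 and 15 in dCas9-KRAB-En5, where 2 libraries were well above the controls and the third was among them. On the log2 scale the change was 1.90 (SE 0.56, adjusted p = 0.0373 from edgeR). Without dCas9-KRAB-En5 replicate 3 it was 2.2 (adjusted p = 0.0019, same test), and with any other library left out the adjusted p was 0.089 to 0.144. The antisense gene *Junos* overlaps *Jun*, and reads of the overlap cannot be told apart here.

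*Jund* was the 1 gene of the 10 with an estimate below 0. It encodes the least inducible JUN protein, which is known to slow growth in several cell types. Its TPM was 136, 329 and 261 in dCas9-KRAB and 105, 72.5 and 70.2 in dCas9-KRAB-En5, with all controls above all dCas9-KRAB-En5 libraries and dCas9-KRAB replicate 1 next to them. The log2 fold change was -1.60 (SE 0.51, adjusted p = 0.0522 from edgeR) and -2.02 without dCas9-KRAB-En5 replicate 3 (adjusted p = 0.00524, same test). With any other library left out the adjusted p was 0.0618 to 0.202. *Jund* had the highest GC content of the 10 (67.1% of its transcript), and with the added GC offset the estimate was -0.83 (adjusted p = 0.148). It overlaps *Gm11175* on the opposite strand.

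In the JUN subfamily the shares of *Jund* and *Junb* did not overlap between the groups. For both the adjusted p was 0.22 (exact permutation test). *Jund* held 50.7%, 34.3% and 29.0% of the summed JUN TPM in dCas9-KRAB and 5.71%, 6.48% and 13.3% in dCas9-KRAB-En5, a difference of -29.5 percentage points (38.0 ± 11.3% against 8.51 ± 4.2%, SD, n = 3, exact permutation test, two-sided, p = 0.1). *Junb* held 45.7%, 63.3% and 69.0% against 87.8%, 83.3% and 83.8% (exact p = 0.1), and *Jun* at most 10.2% in any library. The FOS subfamily took 1.67%, 1.60% and 1.15% of all FOS and JUN transcripts in dCas9-KRAB and 7.77%, 5.93% and 2.12% in dCas9-KRAB-En5, so the groups did not overlap (exact p = 0.1, adjusted 0.22). JUN transcripts thus outnumbered FOS transcripts in all 6 libraries.

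**Figure D2:**
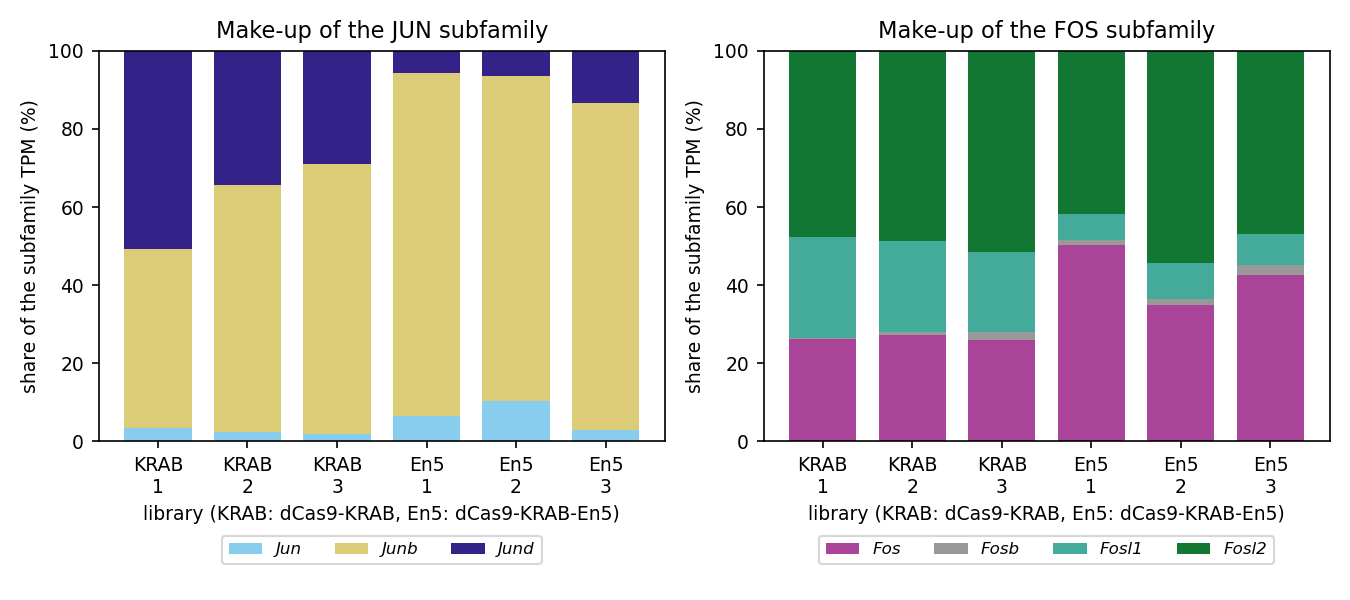
Stacked bars of the share of each gene in the summed TPM of the JUN subfamily (left) and of the FOS subfamily (right), in percent, for each of the 6 libraries. The *Jund* share is 29.0% to 50.7% in the dCas9-KRAB libraries and 5.71% to 13.3% in the dCas9-KRAB-En5 libraries, and the *Fos* share of the FOS subfamily is 26.0% to 27.3% against 35% to 50.4%.

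*Egr1*, a zinc finger factor used as a marker of recent stimulation, had 2.43, 14.9 and 15.8 TPM in dCas9-KRAB and 77.3, 32.1 and 8.67 TPM in dCas9-KRAB-En5. Again replicates 1 and 2 of dCas9-KRAB-En5 were above all controls and replicate 3 was not. Its log2 fold change was 1.49 (SE 0.70, adjusted p = 0.165 from edgeR). *Egr2*, its relative known from Schwann cells and from myeloid and lymphoid cells, had 0.792, 2.04 and 2.06 TPM in dCas9-KRAB and 4.44, 3.44 and 0 TPM in dCas9-KRAB-En5. The 0 counts of replicate 3 allow up to 0.0386 TPM (3 counts, counting error only), while the other 5 libraries had 73 to 320 counts. The log2 fold change of 0.18 (SE 1.09) depends on how the 0 is treated and on the libraries kept. It turned negative in 5 of 19 alternatives, among them the fits without dCas9-KRAB replicate 1 (-0.21) and without dCas9-KRAB-En5 replicate 1 (-0.52). The 19 include a looser threshold, which cannot change an estimate. No direction can be given for *Egr2*.

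*Atf3* is a leucine zipper repressor induced by many stresses, often below ATF4. Its TPM was 34.9, 43.1 and 35.4 in dCas9-KRAB, the tightest control values of the 10 relative to their mean, and 111, 94.6 and 10.6 in dCas9-KRAB-En5. The libraries of dCas9-KRAB-En5 thus lay on both sides of the controls, and the log2 fold change of 0.50 (SE 0.54, adjusted p = 0.556 from edgeR) was within its error. *Atf3* overlaps *Gm24748* on the opposite strand.

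**Figure D3:**
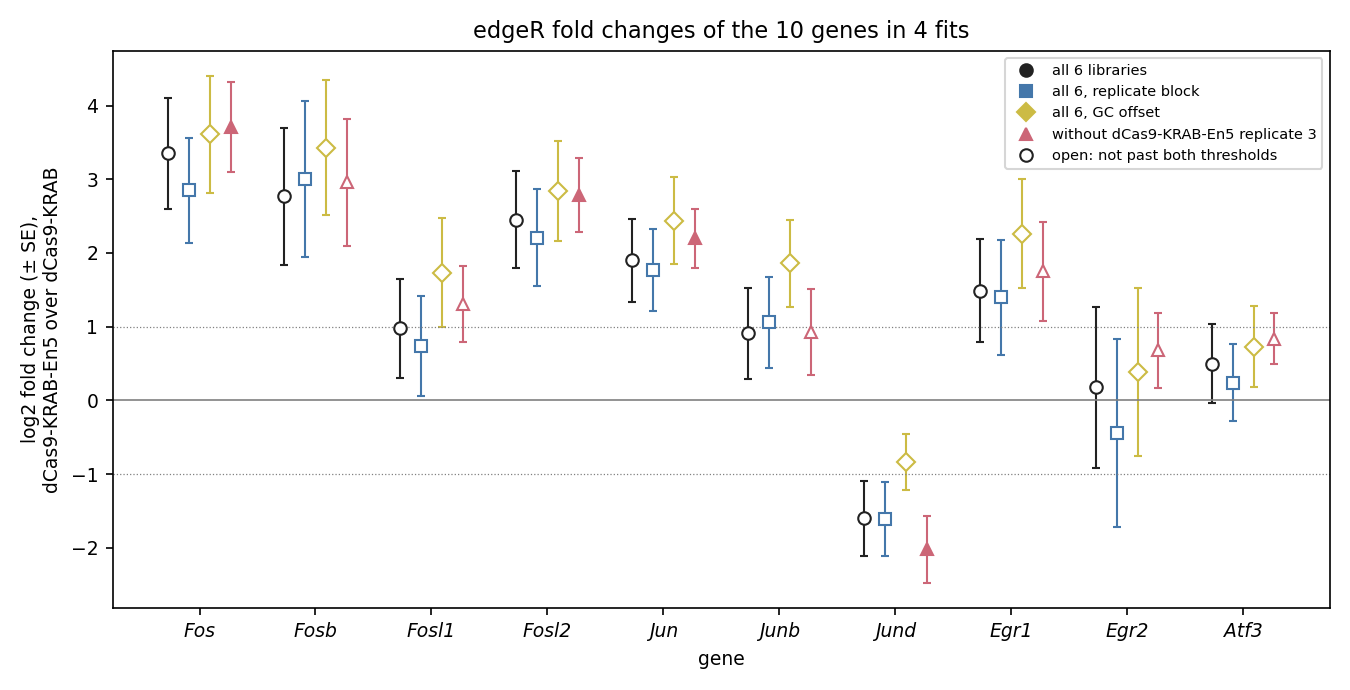
Log2 fold change with its SE from edgeR (dCas9-KRAB-En5 over dCas9-KRAB) of the 10 genes in 4 fits, where filled symbols passed both thresholds and dotted lines mark a 2-fold change. In all 4 fits shown *Jund* is the only gene with an estimate below 0 apart from *Egr2* in the fit with the replicate block, and filled symbols appear for *Fos*, *Fosl2*, *Jun* and *Jund* without dCas9-KRAB-En5 replicate 3.

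Ranked by mean TPM, the controls ran from *Junb* (449.7 ± 283, SD, n = 3) and *Jund* (242 ± 98.1) through *Atf3* (37.8 ± 4.59), *Jun* (16.9 ± 7.09), *Egr1* (11 ± 7.47), *Fosl2* (5.06 ± 2.74), *Fos* (2.73 ± 1.55), *Fosl1* (2.31 ± 1.24) and *Egr2* (1.63 ± 0.725) to *Fosb* (0.117 ± 0.102). Among neighbours in that order, the ranges did not overlap between *Jund* and *Atf3*, between *Atf3* and *Jun*, and between *Egr2* and *Fosb*. In dCas9-KRAB-En5, *Junb* again came first (997 ± 592), followed by *Jun* (83.2 ± 59.1), *Jund* (82.7 ± 19.7) and *Atf3* (72.2 ± 54.0). *Egr1* (39.4 ± 34.9), *Fosl2* (36.2 ± 29.8) and *Fos* (36.0 ± 38.0) came next, ahead of *Fosl1* (5.94 ± 4.8), *Egr2* (2.63 ± 2.33) and *Fosb* (1.03 ± 0.764). There only the ranges of *Junb* and *Jun* did not overlap. Such ranges leave out that the genes share their libraries, so an overlap does not show equal levels. Within each dCas9-KRAB-En5 library *Fos* (78.3, 24.7 and 4.87 TPM) was above *Fosl1* (10.5, 6.44 and 0.903 TPM). *Jun* was above *Jund* in replicates 1 and 2 and below it in replicate 3. By mean TPM, *Jund* was the second gene in the controls and was level with *Jun* in dCas9-KRAB-En5.

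Within each group the order of the libraries was much alike across the 10 genes. On the TPM scale, dCas9-KRAB replicate 1 was the lowest control for 10 of 10 genes (44.2% of all genes), dCas9-KRAB-En5 replicate 3 the lowest of its group for 10 of 10 (77.0%) and dCas9-KRAB-En5 replicate 1 the highest for 10 of 10 (32.8%). On TMM-scaled CPM (counts scaled to 1000000 per library), which correct for the make-up of each library, these counts were 10 of 10 (41.3%), 8 of 10 (50.7%) and 9 of 10 (32.8%). *Jund* departed from it on that scale, at 79.5, 47.5 and 115.3 CPM in dCas9-KRAB-En5, with replicate 3 the highest. Replicate 1 of dCas9-KRAB and replicate 3 of dCas9-KRAB-En5 also had the highest ribosomal protein share of their groups, at 19.39% and 25.8%, and the part of this in the order was not tested.

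Same-numbered libraries therefore gave unlike ratios. Between the libraries numbered 1, 9 of 10 genes were higher in dCas9-KRAB-En5 (64.2% of all genes in TPM), and *Fos* was 65.7-fold, *Egr1* 31.8-fold and *Fosl2* 29.8-fold higher. Between those numbered 2, 9 of 10 were higher as well (62.8% of all genes), by 5.77-fold for *Fos*, 2.15-fold for *Egr1* and 5.03-fold for *Fosl2*. Between those numbered 3 only 2 of 10 were higher (25.9% of all genes), with *Fos* at 1.79-fold, *Egr1* at 0.549 and *Fosl2* at 0.995 of the control. On TMM-scaled counts 5 of 10 were higher between the libraries numbered 3 (45.5% of all genes), namely *Fos*, *Fosb*, *Fosl2*, *Jun* and *Junb*, and on that scale all dCas9-KRAB-En5 libraries were above all controls for 4 genes, with *Fosl2* and *Jun* added (15.4% of all genes), and below them for *Jund* (20.3%). *Jund* was lower in all 3 same-numbered pairs on both scales, at 0.775, 0.220 and 0.269 of the control in TPM.

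**Figure D4:**
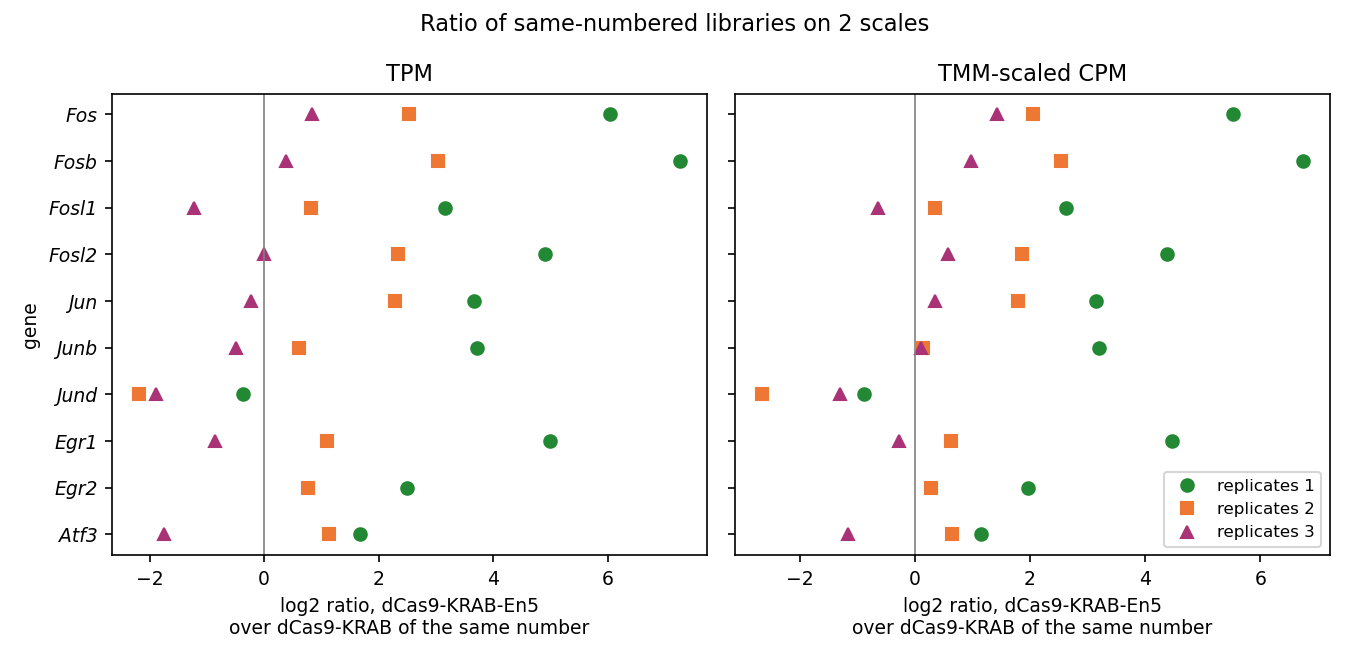
Log2 ratio of each dCas9-KRAB-En5 library to the dCas9-KRAB library of the same number, in TPM (left) and in TMM-scaled CPM (right), for the 10 genes (*Egr2* has no point for replicates 3, where it had 0 counts). Replicates 1 give the highest ratio for every gene, and *Jund* lies left of 0 in all 3 pairs on both scales.

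Some genes followed the pattern of a member closely over the 6 libraries. Among 5203 genes with a mean of at least 10 TPM, those most like *Fos* by Pearson's r of log2(TPM + 1) were *Zc3h12a* (0.996), *Osm* (0.989) and *Dusp5* (0.989). *Osm*, the cytokine oncostatin M, had 1.44, 4.29 and 3.28 TPM in dCas9-KRAB and 62.4, 36.7 and 5.46 TPM in dCas9-KRAB-En5. Among the genes nearest to *Jun* were *Rpl14* (0.998) and *Tnfsf9* (0.996), and those nearest to *Egr1* were *Dusp1* (0.994), *Ccrl2* (0.984) and *Cebpb* (0.983). These correlations over 6 libraries describe shared patterns among many genes, which share the libraries and their depth, and carry no test.

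Around the 10 genes, other parts of the same response were called in places, more often toward dCas9-KRAB-En5. Of 32 other immediate early genes tested, 7 rose and 0 fell in edgeR (1.52% and 4.67% of all genes). Their median log2 fold change was 1.30 (0.08 over all genes). At an unadjusted p under 0.05, 15 were higher and 2 lower (16.6% and 16.3% of all genes). DESeq2 called 11 higher and 1 lower (5.88% and 8.66%), and limma on log2(TPM + 1) called 1, *Socs3* (0.223% and 3.35%). These shares over all genes apply to the lists that follow as well, with 3.94% and 6.79% for the replicate block. *Ptgs2*, which encodes the inducible prostaglandin synthase COX-2, had 2.75, 1.63 and 2.25 TPM in dCas9-KRAB and 349, 150.4 and 8.95 TPM in dCas9-KRAB-En5 (log2 fold change 5.77, SE 0.94, adjusted p = 0.00234 from edgeR). The messenger RNA decay factor *Zfp36l1* (3.99), the TGF-beta-inducible factor *Klf10* (2.46) and *Socs3*, an inhibitor of cytokine signalling (3.41), rose as well, as did *Ier3* (2.88), *Gadd45b* and *Ier5*. In each of the 7 genes all dCas9-KRAB-En5 libraries, replicate 3 included, were above all controls, but the 7 were called on these same values. Over the list, 9 of 32 genes were above in this way (7.76% of all genes) and 1 was below (19.7%). Not all of the list rose. *Nr4a1*, a nuclear receptor induced much like *Egr1*, had 94.0, 19.0 and 1.28 TPM against 1.51, 2.89 and 4.12 in the controls (log2 fold change 3.29, adjusted p = 0.0394 from edgeR). *Zfp36* missed the threshold at 2.61 (adjusted p = 0.0181), and *Btg2* (0.97), *Ier2* (-0.68) and *Myc* (-1.28) were not called. Without dCas9-KRAB-En5 replicate 3, 15 of 33 tested rose and 1 fell (11.7% and 14.0% of all genes). Leaving out any 1 of the dCas9-KRAB libraries left 0 calls, where 0.0397% to 0.152% of all genes were called higher and 1.43% to 2.47% lower. The list gave 3 higher without dCas9-KRAB-En5 replicate 1 (0.847% of all genes) and 4 without replicate 2 (0.779%).

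The other leucine zipper genes of the family did not pass, with 0 of 10 called by edgeR and a median log2 fold change of 1.72. At an unadjusted p under 0.05, 5 were higher and 0 lower, DESeq2 called 2 higher, and limma called 0. In edgeR without dCas9-KRAB-En5 replicate 3 there were 5 higher and 1 lower (11.7% and 14.0% of all genes). With any other library left out there were 0 (0.0397% to 0.847% of all genes higher and 1.43% to 3.26% lower). *Batf*, which pairs with JUN in immune cells, was at 1.69 with all dCas9-KRAB-En5 libraries above all controls (adjusted p = 0.213 from edgeR). *Maff*, a small MAF protein, was at 0.37, and *Batf3* had at most 19 counts in any library and was not tested. Of the other EGR and NAB genes 0 of 3 were called by edgeR, DESeq2 or limma, and 1 was higher at an unadjusted p under 0.05. In edgeR 1 was called higher without dCas9-KRAB-En5 replicate 3 (11.7% of all genes). *Egr3* was at 0.74, with 1.12 TPM at most, and the EGR corepressor *Nab2* at -0.45. *Egr4* was listed in no library.

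Among the upstream genes, the serum response and CREB activators gave 1 call of 10, the ETS factor *Elk3* (log2 fold change 2.19, adjusted p = 0.00871 from edgeR). *Srf* itself was at 0.48 and its coactivator *Mrtfa* at 0.70, neither called. Of 21 MAP kinase genes, *Map3k1* rose (3.91) and *Mapk12* fell (-4.12), and with the replicate block 4 rose and 1 fell. Without dCas9-KRAB-En5 replicate 3, 3 of the 10 activators rose and 0 fell, and 4 of the 21 kinases rose and 1 fell (11.7% and 14.0% of all genes). *Elk3* was not called with any other library left out, and *Map3k1* was called then only without dCas9-KRAB-En5 replicate 1. *Mapk12* encodes p38-gamma, the form of p38 known for its high level in skeletal muscle, and it had 12.9 to 15 TPM in dCas9-KRAB and 0.543 to 0.942 TPM in dCas9-KRAB-En5. *Map3k1* had 22.1 and 29.9 TPM in dCas9-KRAB-En5 replicates 1 and 2 and 0.933 TPM in replicate 3, within the control range of 0.618 to 1.07 TPM.

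The phosphatases and adaptors that shut ERK and other MAP kinases off gave 3 increases and 0 decreases among 14 genes in edgeR. At an unadjusted p under 0.05, 6 were higher and 4 lower, DESeq2 called 6 and 1, and limma called 1, *Dusp4*. *Dusp4* had 2.34, 10.8 and 7.33 TPM in dCas9-KRAB and 197.4, 250.7 and 35.4 TPM in dCas9-KRAB-En5 (log2 fold change 4.19, SE 0.66, adjusted p = 0.00187 from edgeR). *Dusp2* (3.35) and *Spred1* (2.89) rose too, and for all 3 genes every dCas9-KRAB-En5 library was above every control in TPM. Over the list this held for 5 of 14 genes (7.76% of all genes). For 3 of 14 every dCas9-KRAB-En5 library was below every control (19.7% of all genes). *Dusp1* (0.96, adjusted p = 0.234) and *Dusp6* (1.27, adjusted p = 0.169), which are also fast feedback genes, were not called by edgeR. Without dCas9-KRAB-En5 replicate 3 the count was 6 higher and 1 lower of 14 (11.7% and 14.0% of all genes). It was 0 without any 1 of the dCas9-KRAB libraries, where 0.0397% to 0.152% of all genes were called higher. There were 2 higher without dCas9-KRAB-En5 replicate 1 (0.847% of all genes) and 4 without replicate 2 (0.779%). Scaling libraries by total counts alone gave 1 higher (0.487%).

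Of 18 textbook targets of AP-1 and EGR factors tested, 14 had an estimate above 0, but 0 rose and 1 fell in edgeR, with a median log2 fold change of 1.22, and 10 were higher and 2 lower at an unadjusted p under 0.05. DESeq2 called 5 higher and 2 lower, limma 0 and 2, and edgeR with the replicate block 1 and 2. Without dCas9-KRAB-En5 replicate 3, 6 of 20 were called higher and 2 lower (11.7% and 14.0% of all genes). With any other library left out the calls were 0 and 1 (0.0397% to 0.847% and 1.43% to 3.26% of all genes). The decrease was in the chemokine gene *Ccl2*, with 77.2, 134.5 and 146.6 TPM in dCas9-KRAB and 1.16, 0.259 and 1.08 TPM in dCas9-KRAB-En5 (log2 fold change -7.07, SE 0.81, adjusted p = 0.000222 from edgeR). *Hmox1*, the heme oxygenase gene, was at 2.12 and was not called (adjusted p = 0.0206 from edgeR), and the urokinase receptor gene *Plaur* was at -0.22.

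Genes of the integrated stress response, in which ATF4 induces *Atf3* among others, gave 0 increases and 3 decreases among 12 in edgeR, and 0 and 5 with the replicate block. At an unadjusted p under 0.05, 2 were higher and 6 lower, DESeq2 called 1 and 6, and limma 0 and 4. The calls were 1 and 6 without dCas9-KRAB-En5 replicate 3 (11.7% and 14.0% of all genes). With any other library left out they were 0 higher and at most 2 lower (0.0397% to 0.847% and 1.43% to 3.26% of all genes). *Atf5* (-3.12), *Trib3* (-2.72) and the asparagine synthetase gene *Asns* (-2.44) fell, each with all dCas9-KRAB-En5 libraries below all controls. That order held for 6 of the 12 genes (19.7% of all genes), and the reverse order for 1 (7.76%). *Ddit3* (-2.04, adjusted p = 0.0108) and *Atf4* (-1.57, adjusted p = 0.0514) were not called by edgeR. Of 12 heat shock genes 0 rose and 1 fell in edgeR (1.52% and 4.67% of all genes). The counts were 3 and 1 in DESeq2 (5.88% and 8.66%) and at an unadjusted p under 0.05 (16.6% and 16.3%). They were 0 and 1 in limma, 1 and 1 with the replicate block, and 3 and 1 without dCas9-KRAB-En5 replicate 3 (11.7% and 14.0%). The decrease was in *Hspb1*, a small heat shock protein abundant in muscle, at 709.4 to 1354.3 TPM in dCas9-KRAB and 28.7 to 86.8 TPM in dCas9-KRAB-En5.

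**Figure D5:**
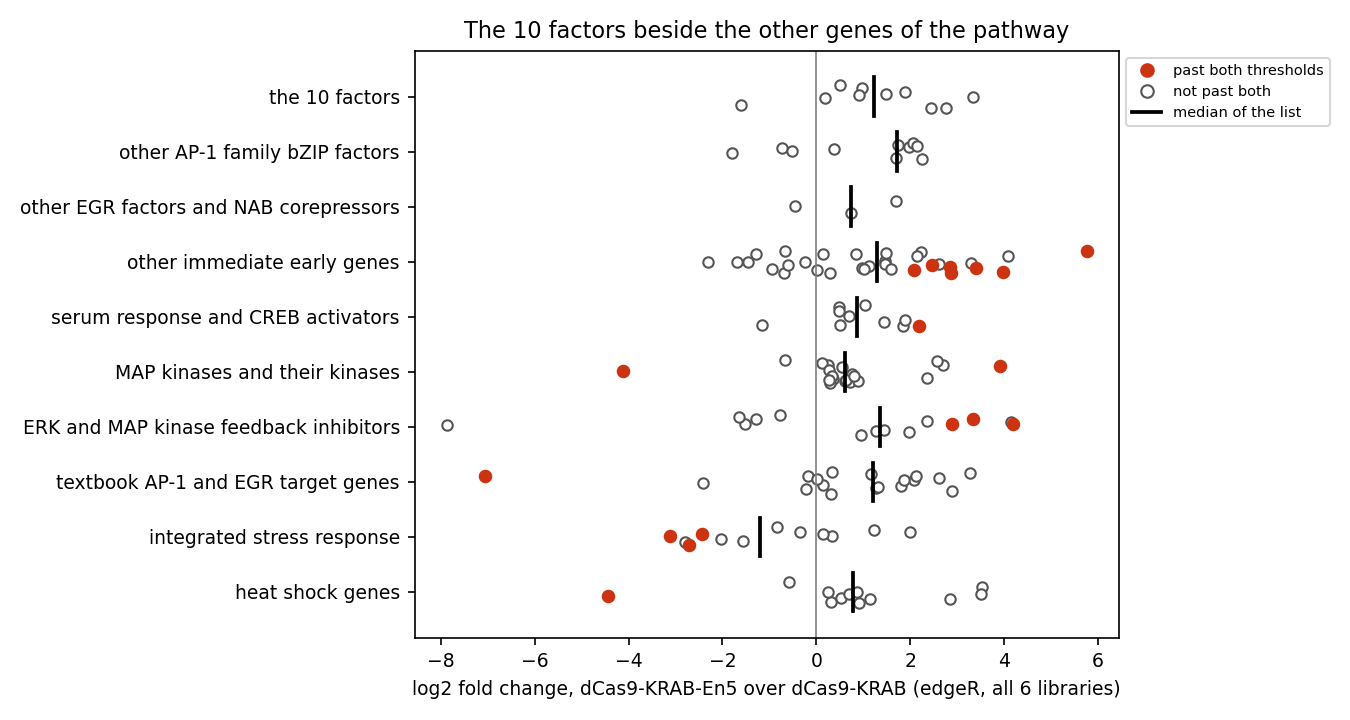
Log2 fold change (edgeR, dCas9-KRAB-En5 over dCas9-KRAB, all 6 libraries) of the 10 factors and of the tested genes of 9 other lists of the pathway, with red points past both thresholds and a black bar at the median of each list. The medians of all lists but the integrated stress response (-1.20) lie above 0, and red points right of 0 are 7 of 32 in the other immediate early genes, 3 of 14 in the feedback inhibitors, and *Elk3* and *Map3k1*, while red points left of 0 are *Mapk12*, *Ccl2*, *Hspb1* and 3 of 12 in the integrated stress response.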

How the data were processed

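RNA-Seq of 6 libraries was used, 3 of dCas9-KRAB and 3 of dCas9-KRAB-En5 C2C12 cells, grouped by the genotype in the sample labels. The submitters' processing notes name HISAT2 2.2.1, featureCounts and GRCm38. The authors deposited raw read counts and TPM per gene and library. A gene absent from a file was taken as 0, and 23155 of 23231 genes were matched to a symbol. The 10 genes and the other lists were chosen with earlier results of these data known, and so was the rule for named genes: all 10 genes, up to 4 called genes per list by adjusted p, a short set named whether called or not, and the 3 genes most like *Fos*, *Jun* and *Egr1*. Of the called genes, *Gadd45b* and *Ier5* lie outside it and were named after their values were seen. A gene that the rule names is not reported here.

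Counts were compared with edgeR 4.0.16 in R 4.3.3 (TMM, filterByExpr with a minimum count of 10 and a minimum total of 15, glmQLFit and glmQLFTest, Benjamini-Hochberg adjustment over all genes tested), and a call needed an adjusted p of 0.01 or less and a log2 fold change of at least 1 in size. The fit was checked on simulated counts. The alternatives were limma 3.58.1 (log2 of TPM plus 1 or plus 0.1), DESeq2 1.42.0, other normalizations and filters, and each library left out. GC offsets, the fit on pairs 1 and 2 and the TMM-scaled order were added after seeing the data. Same-numbered libraries of the groups deviated together (r = 0.313, 0.334 and 0.396 over genes, against -0.471 to -0.082 for other pairs), so the replicate number was also fitted as a block. The deviations were taken from each group's own mean, so positive values in same-numbered pairs force negative ones elsewhere. That contrast is therefore partly built in. Replicates of a group differed by more than sampling noise (chi-square at least 119.1 times its degrees of freedom) and were each counted. Depth was 31831093 to 73988425 counts, and limits from 0 counts cover counting error only. Gene positions are from GENCODE vM21.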

Additional observations from a re-analysis of the deposited data

How the results depend on the processing

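The number of the 10 genes called higher was 0 with all 6 libraries, 1 with upper quartile scaling (1.53% of all genes), 3 without the low-count filter (4.32%), 3 at an adjusted p of at most 0.05 (7.43%), 4 with DESeq2 (5.88%), and 5 with the replicate block on pairs 1 and 2 only (13.0%). It was 0 to 3 with 1 library left out (0.0397% to 11.7% of all genes), highest without dCas9-KRAB-En5 replicate 3. The number called lower was 0 in these settings, with 2 exceptions. It was 1 with the block on pairs 1 and 2 (14.7% of all genes) and 0 to 1 with 1 library left out (1.43% to 14.0%). The replicate block on all 6 libraries changed no call among the 10. For *Fos* the adjusted p of edgeR, limma or DESeq2 was at most 0.0826 over all alternatives. The direction held for 9 of the 10 genes in every alternative run that could test them. *Egr2* turned from 0.18 to -0.44 with the replicate block, -0.29 with the block and the GC offset, -0.45 in limma on log2(TPM + 0.1), and ranged from -0.52 to 0.68 with 1 library left out (-0.21 without dCas9-KRAB replicate 1), and the cause was not tested. The FOS share of AP-1 transcripts differed by 3.8 percentage points in TPM and by 9.67 in raw counts, which are not divided by length. It differed by 2.55 to 5.37 with 1 library left out, and the *Jund* share by -34.0 to -23.2. Within same-numbered pairs (the replicate block) the mean differences, 3.8 and -29.5, equal those between the groups by arithmetic, so they are no check (exact p = 0.25, the smallest 3 pairs allow). Over all genes, 890 were called, against 2390 with DESeq2, 1543 with the block and 3921 without dCas9-KRAB-En5 replicate 3. With 3 libraries a group and this spread, a p that misses the threshold does not show equal levels.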
